A study of Komagataella phaffii with 72 samples.

Results

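A pair of transformants of one strain and one expression cassette, X-33 rhG-CSF clone 13 and X-33 rhG-CSF clone 16, were compared for their native transcripts after methanol induction. They were chosen by their rhG-CSF transcript level, since clone 13 carried the most and clone 16 the least transgene mRNA of the 3 X-33 rhG-CSF clones, and clone 12, which lay between them, was used as the intermediate. Each clone was grown as 3 cultures, named A, B and C, so the comparison rests on 6 of the 72 libraries of the series, with 3 further libraries of clone 12 in the same fit. The 3 rows that measure introduced sequences (rhG-CSF, rhGH and a marker) were left out of library sizes, normalization and tests.

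The organism is Komagataella phaffii, the methylotrophic yeast long called Pichia pastoris, and X-33 is one of its common laboratory hosts, a revertant of the histidine-requiring strain GS115. X-33 still carries a substitution in HIS4, a gene of histidine synthesis. Y-48124 is the culture-collection deposit of X-33 and shares nearly all of its known variants. The series crossed 4 strains (Y-11430, GS115, X-33 and Y-48124) with 2 secreted human proteins, granulocyte colony-stimulating factor (rhG-CSF) and growth hormone (rhGH), with 3 clones of each combination. The clones compared carried the rhG-CSF gene on pPICZ A behind the AOX1 promoter, as the X-33 rhGH clones used for reference carried that of rhGH. All grew for 24 h in 4% glycerol in deep-well plates and were sampled after a further 24 h in 1.5% methanol. No untransformed strain or clone without a transgene was among the libraries analysed, and a clone is 1 transformant, so a difference between clones is a difference between these transformants and cannot be told apart from any other change that came with each transformation.

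The AOX1 promoter drives alcohol oxidase, the first enzyme of methanol use, and is silent on glycerol and strong on methanol. Vectors of this kind insert into the genome at one or more copies, and transformants of the same strain are known to differ in how much product they make. A secreted product is translated into the endoplasmic reticulum, folded and passed through the secretory route to the cell surface, where the cell wall, its adhesins and the plasma membrane transporters meet the medium.

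Counts were those of 3′ digital gene expression, in which 1 fragment near the 3′ end stands for each transcript. Totals ran from 1201340 to 1413594 in clone 13, from 1548368 to 2060783 in clone 16 and from 1151270 to 1359641 in clone 12, so that clones 13 and 16 did not overlap in depth. Cultures of a clone differed by more than counting noise, with a chi-square per degree of freedom of 2.04 to 5.32 over the 9 pairs, and were kept as separate replicates. The labels do not say whether cultures began from separate precultures, so the p-values measure the spread between these cultures. As a check of the product label, the rhG-CSF row held 2868 to 15994 counts in the 9 X-33 rhG-CSF libraries and 28 to 92 in the 9 X-33 rhGH libraries.

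The values that set the choice of clones were the levels of the rhG-CSF row, given here as a description. In clone 13 it stood at 13.59, 13.41 and 13.47 on the authors' log2(TPM + 1) scale in cultures A, B and C, where TPM is transcripts scaled to a common total after division by effective length. In clone 12 the 3 values were 11.63, 11.71 and 11.73, and in clone 16 they were 10.89, 10.86 and 10.72. The 3 clones did not overlap, and the spread within a clone was small beside the gaps between them.

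In shares of the library, the transgene took 1.16% (1.15 to 1.18), 1.03% (1.01 to 1.05) and 1.09% (1.07 to 1.11) of all counts in clone 13, with Wilson 95% intervals that cover counting error only. In clone 16 it took 0.185% (0.179 to 0.192), 0.180% (0.174 to 0.186) and 0.167% (0.161 to 0.173). The mean shares were 1.10% ± 0.067 (SD, n = 3) in clone 13, 0.317% ± 0.012 in clone 12 and 0.177% ± 0.0094 in clone 16, so that clone 13 stood 6.18-fold above clone 16 and 3.46-fold above clone 12. Clone 12 was 1.79-fold above clone 16 and so lay nearer to the low clone. These are bulk cultures, so more transgene RNA per cell and a larger share of cells expressing it cannot be told apart.

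The marker row did not follow the same order of distances. It stood at 7.34, 7.59 and 7.46 in clone 13, at 5.93, 5.80 and 5.43 in clone 12 and at 5.18, 5.88 and 5.52 in clone 16. Clone 13 lay apart from both others, by 1.93 log2 units from clone 16, while clones 12 and 16 overlapped, with means of 5.72 ± 0.26 and 5.53 ± 0.35 (SD, n = 3 each). This row is sparse, with 29 to 63 counts per culture of clone 16 and 114 to 130 per culture of clone 13.

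**Figure D1:**
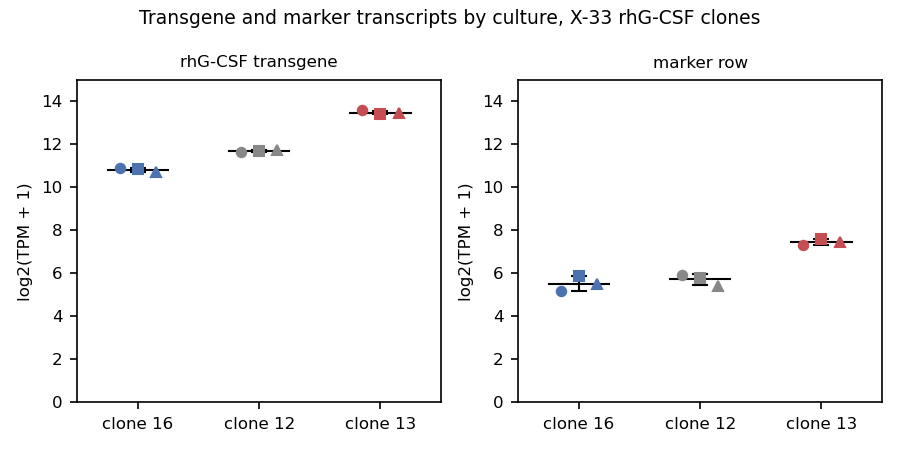
Level of the rhG-CSF transgene (left) and of the marker row (right) as log2(TPM + 1) in each culture of clones 16, 12 and 13 (circle A, square B, triangle C), with the mean and SD of 3 cultures as bars. The transgene separates all 3 clones, with means of 10.83, 11.69 and 13.49, whereas the marker separates only clone 13 from the others.

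Among native transcripts, 928 of 4767 tested genes (19.5%) differed between clone 13 and clone 16 in edgeR's quasi-likelihood test at a Benjamini-Hochberg adjusted p under 0.05. Of these, 514 were higher in clone 13 (10.8% of all tested) and 414 lower (8.68%). Most changes were small. The median size was 0.65 log2 units (1.57-fold) among the genes that were higher and 0.51 (1.42-fold) among those that were lower, and only 85 and 34 exceeded 1 log2 unit. The largest fitted changes were 3.15 upward and 2.73 downward.

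In log2(TPM + 1), the 3 cultures of clone 13 lay wholly above or below those of clone 16 for 460 of the 514 higher genes and for 407 of the 414 lower genes, whereas over all tested genes 14% lay wholly above and 19.2% wholly below (33.1% in all). The calls rest on these same cultures, so the separation among called genes follows in large part from the calling. The balance of directions depended on the scale. With limma on log2(TPM + 1), where the median of all genes moved from 0.02 to -0.04, 339 genes were called higher and 444 lower. The transgene takes part in the TPM total, and its part in this shift was not tested. With transgenes kept in the edgeR normalization, 513 were called higher and 417 lower.

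**Figure D2:**
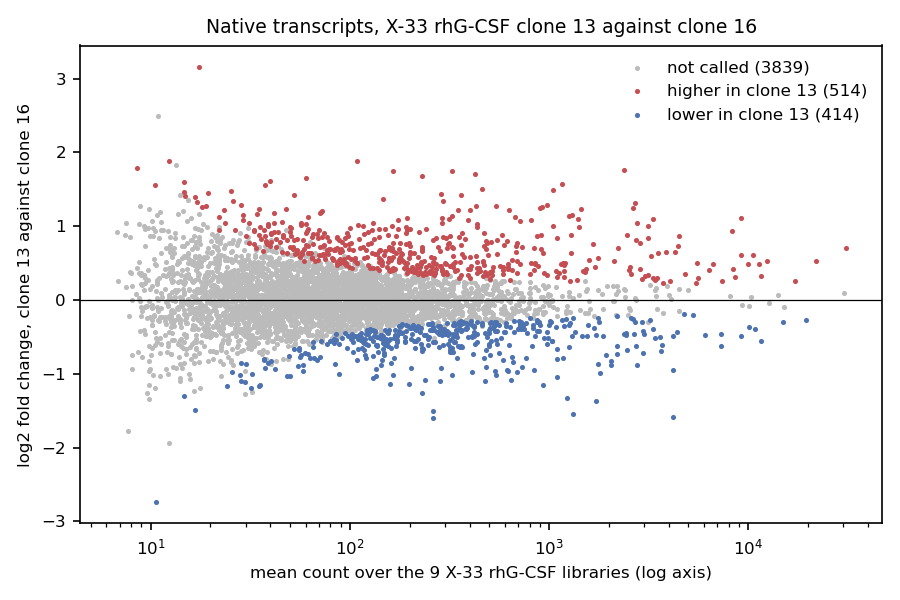
Log2 fold change of clone 13 against clone 16 for each of the 4767 tested native genes, plotted against its mean count over the 9 libraries on a log axis. Each point is 1 gene, and the 514 genes called higher and the 414 called lower in clone 13 are coloured.

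In share of RNA, the genes called higher took 35.9 to 38.7% of native counts in the cultures of clone 13 and 25.6 to 26.6% in clone 16. The genes called lower took 17.7 to 19.1% in clone 13 and 26.9 to 27.2% in clone 16. Both sets were chosen by this contrast, so the gap between clones 13 and 16 follows from the choice. Clone 12 was in the fit but not in the contrast. It held 28.7 to 29.4% in the first set and 23.7 to 23.9% in the second, between the other clones in each culture. Sets chosen for a gap between the outer clones by themselves leave more room for an intermediate value.

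Calls were concentrated in well-expressed genes. The lowest quartile of mean count yielded 3.16% higher calls and 1.42% lower calls, whereas the highest quartile, from 192.1 counts upward, yielded 22.2% and 22.6%. Whether fewer genes changed or fewer changes were detected at low counts was not tested.

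The 2 directions also differed in transcript length. Relative effective length, taken as the ratio of count to TPM with the median tested gene near 1, was essentially the same for a gene in every library. Its lowest quartile yielded 7.38% higher and 12% lower calls, and its highest 13.3% higher and 5.45% lower calls. Taken over every gene of a quartile, the median change of clone 13 against clone 16 on the log2 scale went from -0.07 in the shortest quartile through 0.01 and 0.03 to 0.10 in the longest. The part of length, or of the unequal depth of the 2 clones, in the calls was not tested.

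**Figure D3:**
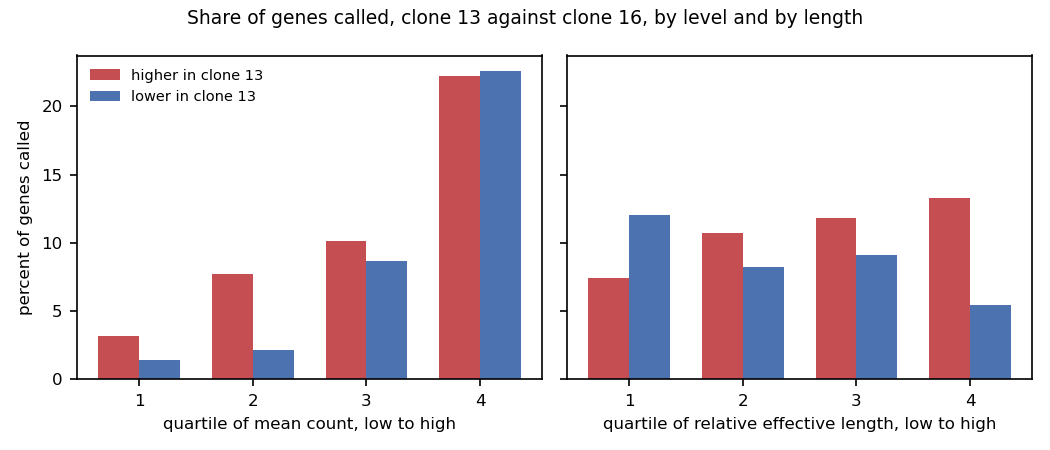
Percent of tested genes called higher or lower in clone 13 against clone 16, by quartile of mean count (left) and of relative effective length (right). Both directions climb with level, from 3.16% and 1.42% to 22.2% and 22.6%, while with length the share called higher climbs from 7.38% to 13.3% and the share called lower drops from 12% to 5.45%.

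The files give locus identifiers without gene names, and none of the 5120 matched the gene table used here. The 2 genes of smallest adjusted p in each direction are therefore given by identifier, and their function is not stated. The first gene that was higher in clone 13, GQ67_02792, was measured at 8.33, 8.35 and 8.42 log2(TPM + 1) in clone 13, 7.54, 7.61 and 7.48 in clone 12 and 6.65, 6.62 and 6.78 in clone 16. The 3 clones did not overlap and followed the order of their transgene levels. The fitted log2 fold change of clone 13 against clone 16 was 1.75 (SE 0.10, edgeR adjusted p = 1.7e-10), or 3.36-fold.

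GQ67_02594 was more abundant and showed the same order, at 10.84, 11.04 and 10.93 in clone 13, 10.31, 10.22 and 10.23 in clone 12 and 9.71, 9.70 and 9.63 in clone 16. Again the clones were fully separate. Clone 13 exceeded clone 16 by 1.32 (SE 0.076, edgeR adjusted p = 1.7e-10), or 2.49-fold.

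Among the genes that were lower, GQ67_04920 had the smallest adjusted p of all. Its level was 10.42, 10.31 and 10.28 in clone 13, 11.40, 11.41 and 11.41 in clone 12 and 11.98, 11.97 and 12.00 in clone 16. Cultures of a clone differed by far less than clones did. The log2 fold change was -1.59 (SE 0.065, edgeR adjusted p = 6.2e-13), a 3.01-fold decrease.

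GQ67_04577 was at 10.16, 10.16 and 10.19 in clone 13, at 11.05, 10.84 and 10.92 in clone 12 and at 11.32, 11.74 and 11.68 in clone 16. Its order was the mirror of the transgene, with no overlap between clones. The log2 fold change was -1.37 (SE 0.098, edgeR adjusted p = 4.4e-09).

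The study pairs 8 identifiers with gene symbols and calls 1 more, GQ67_02041, a cell wall gene. In the study, the 8 come from a comparison of untransformed strains grown on glycerol, and GQ67_02041 from a sequence variant. They were taken up here with earlier results of these data known, so the choice was not blind to them. Of the 8, 2 were higher in clone 13, 3 were lower and 3 were not called (62.5% called, against 19.5% of all tested genes), with a median log2 fold change of 0.12 against 0.02 over all tested genes. Their roles below are those of the Saccharomyces cerevisiae genes of the same name. In the longer list of 20 identifiers from which the 8 come, 5 were higher, 5 were lower and 10 were not called (50% called), with a median of 0.04. These genes were not matched to the tested genes in level.

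FLO11-BSC1 and the cell wall gene GQ67_02041 were both lower in clone 13, while ZPS1, a cell-surface protein grouped with metal uptake below, was higher. FLO11 encodes a flocculin that sits in the cell wall and mediates adhesion and filamentous growth, and BSC1 resembles it. FLO11-BSC1 (GQ67_01392) was at 3.97, 3.90 and 4.02 in clone 13, 4.94, 4.75 and 4.59 in clone 12 and 5.25, 5.76 and 5.60 in clone 16. The clones were again in order with no overlap.

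The log2 fold change of FLO11-BSC1 was -1.60 (SE 0.14, edgeR adjusted p = 4.1e-08), a 3.04-fold decrease on 94 to 123 counts in clone 13 and 331 to 633 in clone 16. Flocculin genes form a family that shares repeats, and how reads were divided among copies was not tested. GQ67_02041 stood at 6.08, 5.81 and 5.95 in clone 13 and 6.80, 6.63 and 6.68 in clone 16, with clone 12 between at 6.39 ± 0.02 (SD, n = 3). It fell by 0.70 (SE 0.13, edgeR adjusted p = 0.00039), and this call was not made when all 36 rhG-CSF libraries entered the fit (adjusted p = 0.058).

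The 3 metal uptake genes were all called, but not in one direction. CTR1 encodes the high-affinity copper transporter of the plasma membrane, and FRE1 the reductase that prepares copper and iron for uptake. CTR1 (GQ67_04497) was at 10.28, 10.06 and 10.16 in clone 13, 10.80, 10.65 and 10.68 in clone 12 and 10.46, 10.50 and 10.46 in clone 16. Clone 13 was the lowest without overlap. Clone 12 had the highest values, but its difference from clone 16, of 0.19 (SE 0.077), was not called (edgeR adjusted p = 0.15).

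CTR1 fell by 0.25 (SE 0.077, edgeR adjusted p = 0.027) against clone 16 and by 0.44 (SE 0.078, adjusted p = 0.00059) against clone 12. The call against clone 16 was lost without culture B (adjusted p = 0.10) or C (0.052) of clone 13, or A (0.0503) or B (0.10) of clone 16, as well as in the fit of all 36 libraries (0.23). FRE1 (GQ67_04112) showed the same pattern, with 6.35, 6.24 and 6.36 in clone 13, 7.03, 7.01 and 6.89 in clone 12 and 6.80, 6.80 and 6.63 in clone 16. It fell by 0.37 (SE 0.093, edgeR adjusted p = 0.0063) against clone 16 and by 0.55 (SE 0.094, adjusted p = 0.00034) against clone 12, and the former was not called in the fit of all 36 (0.19). Clone 12 against clone 16 stood at 0.18 (SE 0.091, adjusted p = 0.25).

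ZPS1, whose expression rises when zinc is scarce, went the other way. ZPS1 (GQ67_03591) was at 6.01, 5.32 and 5.15 in clone 13, 5.31, 5.05 and 5.52 in clone 12 and 4.52, 4.59 and 4.23 in clone 16. Clones 13 and 12 overlapped and both lay above clone 16. The log2 fold change of clone 13 against clone 16 was 1.19 (SE 0.26, edgeR adjusted p = 0.002) on only 29 to 73 counts per culture.

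Of the 2 transporters, YFL040W, a putative membrane transporter, was higher in clone 13. YFL040W (GQ67_02261) stood at 8.28, 8.00 and 7.85 in clone 13, 8.07, 8.11 and 8.02 in clone 12 and 7.81, 7.77 and 7.48 in clone 16. The lowest culture of clone 13 was close to the highest of clone 16. It rose by 0.42 (SE 0.11, edgeR adjusted p = 0.0073), a call that was lost without culture C of clone 16 (adjusted p = 0.054), with limma on log2(TPM + 1) (0.067) and in the fit of all 36 libraries (0.15).

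PDR12, a pump that exports weak organic acids, was level across the clones. PDR12 (GQ67_05224) averaged 8.76 ± 0.16 (SD, n = 3) in clone 13, against 8.77 ± 0.04 for clone 12 and 8.77 ± 0.09 for clone 16. The fitted difference between clones 13 and 16 was 0.05 (SE 0.076, edgeR adjusted p = 0.71), and its sign turned under 3 of the other settings.

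The remaining pair was not called either. NIT1, a nitrilase, varied widely between cultures. NIT1 (GQ67_00061) was at 4.32, 5.06 and 5.77 in clone 13 and 4.07, 4.46 and 4.98 in clone 16, and these ranges overlapped. Its log2 fold change was 0.69 (SE 0.31, edgeR adjusted p = 0.13). Without culture A of clone 13 it was 1.01 and past the threshold (adjusted p = 0.012).

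YDL218W, a gene of unknown function, did not follow the transgene order. YDL218W (GQ67_02654) was at 9.28, 9.07 and 9.01 in clone 13, 8.71, 8.51 and 8.74 in clone 12 and 9.04, 8.99 and 8.93 in clone 16. Clone 12 was the lowest of the 3. Clone 13 exceeded it by 0.58 (SE 0.097, edgeR adjusted p = 0.00028) and clone 12 lay below clone 16 by a log2 fold change of -0.39 (SE 0.096, adjusted p = 0.014), while clones 13 and 16 differed by 0.19 (SE 0.094, adjusted p = 0.17).

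**Figure D4:**
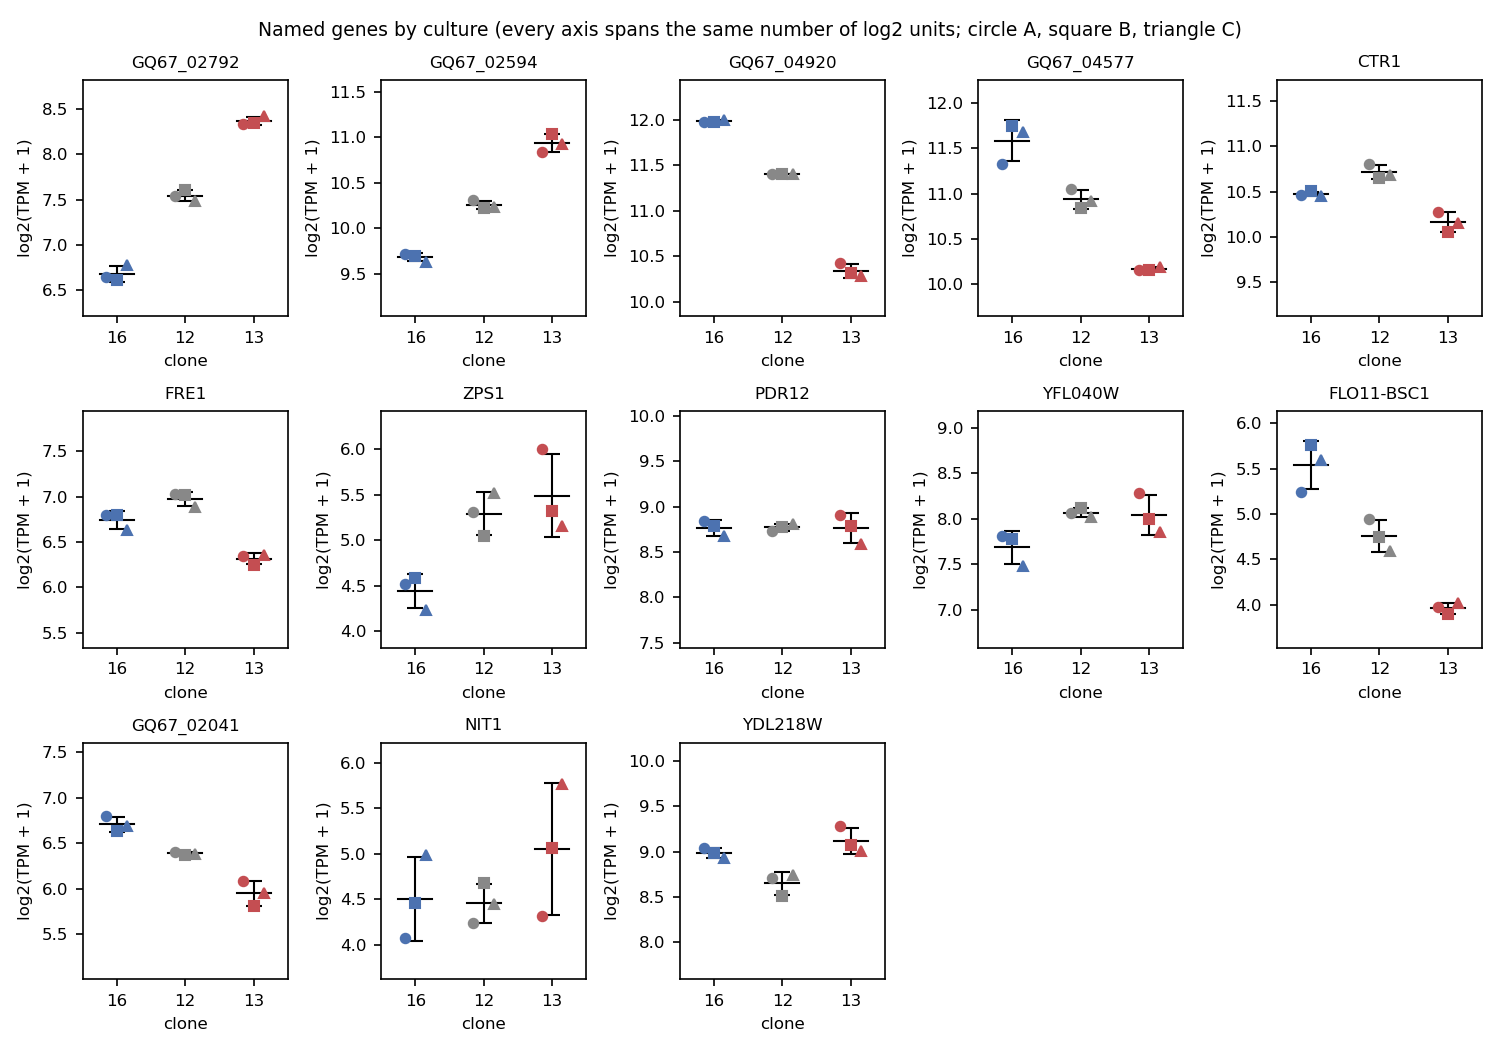
Log2(TPM + 1) of the 13 named genes in each culture of clones 16, 12 and 13 (circle A, square B, triangle C), with the mean and SD of 3 cultures, each axis spanning the same number of log2 units. GQ67_02792, GQ67_02594, GQ67_04920, GQ67_04577 and FLO11-BSC1 step through the clones in transgene order, while for CTR1, FRE1 and YDL218W the mean of clone 12 lies outside those of the other 2, a difference from clone 16 that was called only for YDL218W.

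Clone 12 allows the difference between the outer clones to be divided. Clone 13 against clone 12 gave 528 called genes (11.1% of 4767; 322 or 6.75% higher and 206 or 4.32% lower), and clone 12 against clone 16 gave 418 (8.77%; 242 or 5.08% higher and 176 or 3.69% lower). With only the compared clones in each fit the order of the counts turned, to 483 and 545. Both counts were unsteady. The first was 338 without culture B of clone 13, and the second lay at 200, 238, 258 and 272 without culture B of clone 16 or cultures A, C and B of clone 12. With limma on log2(TPM + 1), where the median of all genes was -0.12 in the first and 0.06 in the second, the splits were 168 higher and 357 lower, and 161 higher and 60 lower.

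These comparisons share libraries, so the calls are only set side by side. Of the 514 genes higher in clone 13 than in clone 16, 236 were also called higher against clone 12, 122 were called higher in clone 12 than in clone 16, 35 passed both and 191 neither. Of the 414 lower genes, 126 were lower than in clone 12, 119 were lower in clone 12 than in clone 16, 24 passed both and 193 neither.

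By fitted level, clone 12 lay between the outer clones for 382 of the 514 higher genes (74.3%) and 332 of the 414 lower genes (80.2%), and for 40.3% of all tested genes. The gap between the outer clones is wider in called genes by the way they were called, which by itself leaves more room for an intermediate value. Among the higher genes that had clone 12 between, it was nearer to clone 16 in 236 and nearer to clone 13 in 146, whereas among the lower genes it was divided into 168 and 164. Beyond the outer clones, clone 12 exceeded clone 13 in 51 of the higher genes and fell below clone 16 in 81.

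Over all tested genes, libraries of different clones were not far more distant than cultures of 1 clone. The root mean square difference in log2 CPM (counts scaled to a common total) was 0.52 to 0.57 between clones 13 and 16, 0.49 to 0.58 between clones 12 and 13 and 0.47 to 0.52 between clones 12 and 16. Within clones it was 0.47 in clone 13 (all 3 pairs), 0.43 to 0.45 in clone 12 and 0.37 to 0.40 in the more deeply sequenced clone 16. The lowest value between clones 13 and 16 thus exceeded the highest within any clone, which was 0.47, while clones 12 and 16 reached down to that value. Every tested gene had equal weight, including the lowest quartile, with mean counts up to 37.8, so these distances include counting noise. Its part in them was not tested.

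Some called genes had neighbouring identifiers. There were 36 runs of at least 3 consecutive identifiers called in 1 direction, holding 123 genes. Of these runs, 28 (99 genes, the longest of 6) were higher in clone 13 and 8 (24 genes, none longer than 3) were lower. Of all tested genes, 10.8% were called higher and 8.68% lower, and the number of runs that these rates alone would give was not counted. Whether identifiers follow the order of genes along a chromosome is not given in the sources used here.

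Several named genes also varied among the X-33 cultures that made the other product. In the 9 X-33 rhGH cultures, GQ67_02594 ranged from 8.56 to 11.03 and GQ67_04577 from 9.34 to 11.37, both wider than the whole span of the rhG-CSF clones. FLO11-BSC1 ranged from 4.06 to 5.76, and from 3.90 to 5.76 in the rhG-CSF clones. For GQ67_04577, culture B was the lowest in each rhGH clone (9.34, 9.58 and 9.62) while cultures A and C lay between 10.53 and 11.37. Its means in rhGH clones 12, 13 and 14 were close, at 10.41, 10.45 and 10.36. For GQ67_04920, culture B was the lowest in each rhGH clone (9.88, 9.88 and 10.23) while cultures A and C lay between 11.02 and 11.33. Its means in these clones were 10.75, 10.83 and 10.77. In the rhG-CSF clones no such difference between letters was seen for that gene, whose cultures within a clone lay close together.

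The other hosts allow the same question to be put with other clones, of which those of Y-48124 share the genetic background of X-33 most closely. In each, the clone with the most transgene was compared with the one with the least, in libraries that X-33 does not share: Y-48124 clone 13 against 14, GS115 clone 13 against 14 and Y-11430 clone 16 against 13. The transgene gaps were wider than in X-33, at 12.0-, 11.6- and 11.5-fold in share of counts. They gave 390 (8.19%), 2348 (47.3%) and 2635 (54.5%) called genes, and the GS115 count ranged from 1691 to 2723 when 1 culture was left out. The count of 2723 was that without culture A of GS115 clone 13. The 2 GS115 clones were very unequal in depth. For GQ67_04920, GS115 clone 14 held 16656 to 163738 counts at 3498 to 4965 CPM. GS115 clone 13 held 2293 to 3599 counts of it at 1304 to 2550 CPM. The part of this depth in the GS115 calls was not tested.

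In Y-48124, the X-33 genes kept their direction more often than they turned it. Of the 512 genes higher in X-33 clone 13 that were tested there, 61 (11.9%) were called higher and 38 (7.42%) lower, against 3.57% and 4.62% of all tested genes. Of 413 lower genes, 73 (17.7%) were called lower and 9 (2.18%) higher. The 61 and 73 genes made up 35.9% and 33.2% of the Y-48124 lists of 170 higher and 220 lower genes, and most X-33 genes, 413 and 331, were not called in Y-48124. Without culture C of its clone 13, Y-48124 gave 251 calls in place of 390.

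In GS115, 177 of the 514 higher genes (34.4%) were called higher and 90 (17.5%) lower, against a background of 24% and 23.3%. Of the 414 lower genes, 155 (37.4%) were called lower and 40 (9.66%) higher. The scale mattered here. With limma on log2(TPM + 1), on which the median of all GS115 genes stood at 0.39, GS115 had 1963 higher and 523 lower calls, and, in a comparison added after the data were seen, the X-33 lower genes then split into 75 lower (18.1%, background 10.5%) and 119 higher (28.7%, background 39.5%).

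In Y-11430 the genes higher in X-33 clone 13 leaned the other way. Only 97 of the 514 (18.9%) were called higher in the high clone and 312 (60.7%) were called lower, against 27.4% and 27.1% of all tested genes, and their median log2 fold change was -0.70 against 0.04 over all. The 414 lower genes did not turn, with 176 (42.5%) called lower and 116 (28%) higher. With limma on log2(TPM + 1) the corresponding shares were 19.3% and 56.2% for the higher genes and 39.4% and 30% for the lower genes. The X-33 called genes were better expressed than the other tested genes, and the background shares were not matched for level. For GQ67_02594, the high Y-11430 clone stood apart, at a mean of 7.01 against 10.40 in clone 12 and 11.06 in clone 13. For GQ67_04920, clone 12 (11.21) lay between clone 13 (10.68) and clone 16 (11.63). Whether the lean belongs to this 1 high transformant was not tested.

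Across all 3 strains, 1 of the 512 higher genes tested in each was called higher in every one, and 11 of the 413 lower genes were called lower in every one. No strain repeated the direction of 238 of the higher and 113 of the lower genes. The share of all tested genes with such agreement was not counted, so these counts have no background to be read against.

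**Figure D5:**
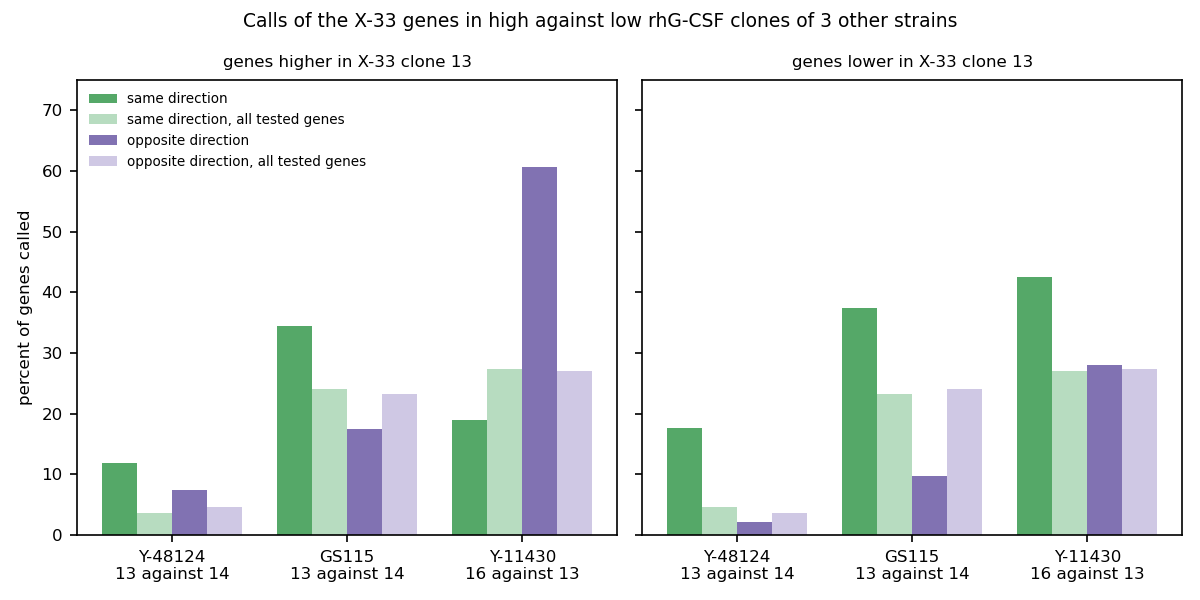
Percent of the genes called higher (left) or lower (right) in X-33 clone 13 that were called in the same or the opposite direction between the high and the low rhG-CSF clone of 3 other strains, with the percent of all tested genes beside each bar. In Y-11430, 60.7% of the genes higher in X-33 clone 13 were called lower, against 27.1% of all tested genes.

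The named genes followed these strains differently. GQ67_04920, lower in X-33 clone 13, was also lower in the high clone of Y-48124 (-0.96, SE 0.10) and GS115 (-1.44, SE 0.30) but higher in that of Y-11430 (0.89, SE 0.095), with edgeR adjusted p-values of 7.9e-06, 0.0026 and 2.2e-08. In GS115 clone 13, culture A stood at 11.28 for this gene, apart from B and C at 10.45 and 10.48. GQ67_02594, higher in X-33, was higher in GS115 (1.002, SE 0.13, adjusted p = 0.00037), lower in Y-11430 (-4.11, SE 0.11, adjusted p = 1.7e-19) and at -0.13 in Y-48124 (SE 0.15, adjusted p = 0.68). GQ67_02792 was lower in Y-11430 (-2.13, SE 0.14, adjusted p = 2.9e-12) and stood at 0.48 in Y-48124 (SE 0.15, adjusted p = 0.054). In GS115 it stood at 0.34 (SE 0.29, adjusted p = 0.35), where culture A of clone 13 lay apart, at 5.96 against 4.79 and 4.90.

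FLO11-BSC1 was lower in the high clone of GS115 by a log2 fold change of -1.94 (SE 0.41, edgeR adjusted p = 0.003), where culture A of clone 13, at 4.77, lay apart from B and C at 3.08 and 3.27. It was higher in the high clone of Y-11430 (0.76, SE 0.14, adjusted p = 9.7e-05) and at 0.17 in Y-48124 (SE 0.14, adjusted p = 0.54). CTR1 and FRE1, lower in X-33 clone 13, were lower in Y-48124 too, by -0.58 (SE 0.084) and -0.68 (SE 0.090), with adjusted p-values of 0.00018 and 7.8e-05. Both were higher in the high clone of Y-11430, by 0.56 (SE 0.084) and 0.45 (SE 0.095). In GS115, CTR1 was higher in the high clone (0.57, SE 0.21, adjusted p = 0.047) and FRE1 stood at 0.63 (SE 0.28, adjusted p = 0.083).

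GQ67_04577, lower in X-33 clone 13, was lower in the high clone of Y-11430 (-1.47, SE 0.091, edgeR adjusted p = 9.4e-13) and stood at -0.18 in Y-48124 (SE 0.10, adjusted p = 0.31) and -0.06 in GS115 (SE 0.63, adjusted p = 0.95). The GS115 value hides a split within clone 13, with culture A at 10.13 and cultures B and C both at 7.58. Clone 14 of GS115 ranged from 8.43 to 9.01. YFL040W, higher in X-33, was lower in Y-48124 (-0.65, SE 0.14, adjusted p = 0.0053) and Y-11430 (-3.45, SE 0.14, adjusted p = 1.8e-16) and stood at 0.19 in GS115 (SE 0.26, adjusted p = 0.56). This gene thus had opposite calls in X-33 and in its deposit Y-48124. PDR12 was lower in the high clone of Y-11430 (-1.28, SE 0.10, adjusted p = 1.0e-10) and not called in Y-48124 or GS115. NIT1 was higher in the high clone of GS115 (1.42, SE 0.25, adjusted p = 0.001) and not called in Y-48124 or Y-11430. ZPS1 and GQ67_02041 were not called in Y-48124, GS115 or Y-11430.

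YDL218W, not called between the outer X-33 clones, was higher in the high than in the low clone of all 3 other strains. The log2 fold changes were 0.96 (SE 0.12) in Y-48124, 1.61 (SE 0.29) in GS115 and 0.26 (SE 0.11) in Y-11430, with edgeR adjusted p-values of 3.6e-05, 0.0013 and 0.043.

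The clone differences of X-33 and Y-48124 were also tested against each other, in 1 fit of their 18 rhG-CSF libraries. Each strain entered this contrast with 1 high and 1 low transformant, and the transgene gaps were 6.18-fold and 12.0-fold. The test thus compares these clone pairs, and a difference between strains cannot be told apart from one between transformants. The clone difference in X-33 (13 minus 16) departed from that in Y-48124 (13 minus 14) for 465 of 4846 genes (9.6%), of which 270 were more positive in X-33 (5.57%) and 195 more negative (4.02%). With limma on log2(TPM + 1) the split was 187 and 238, and with all 36 libraries it was 151 and 64. The differences from GS115 and Y-11430 were not tested.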

How the data were processed

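Libraries of 3′ digital gene expression were made from 9 X-33 rhG-CSF cultures (3 clones, 3 cultures each) and quantified by the authors with Salmon (version 0.9.1 in the submitters' processing notes, which also list bedtools 2.26.0) against 1 transcript per gene with a 100-nt 3′ extension plus the transgene sequences. Whether molecular identifiers were merged is not given in the sources used here. The authors deposited whole-number counts per gene and, in a second table, log2(TPM + 1) values. Division by length in TPM, and a transgene that takes part in the total, can move every other gene on that scale, and 3′ counts do not see changes away from the 3′ end. The Y-11430 columns carry the letters WT in both tables and were matched to that strain by elimination, clone and culture letter. No column was left unmapped.

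Native genes (5120) were tested on counts with edgeR 4.0.16 (TMM, filterByExpr by clone, quasi-likelihood test, R 4.3.3), with a mean per clone over the 9 libraries of a strain. Benjamini-Hochberg adjustment ran over all tested genes, and genes were called at an adjusted p under 0.05. Other strains were fitted likewise, and X-33 with Y-48124 in 1 fit. The study's methods name DESeq2 with shrinkage. DESeq2 1.42.0 (also shrunken), limma 3.58.1 on log2(TPM + 1) and on log2(CPM + 1) or log2(CPM + 5), DESeq2 size factors, transgenes kept, no filter, a block for culture letter, all 36 rhG-CSF libraries, only the compared clones, a log2 fold change above 1 and leaving out each culture were alternatives. A count of the X-33 genes among limma calls in other strains was chosen after seeing the data. The pipelines were tested on simulated data. Wilson intervals are at 95% and cover counting error only. Group means are ± SD.

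Named genes were those the study pairs with a symbol, 1 that it calls a cell wall gene, and, among called genes without overlap of cultures and with a mean of at least 10 counts, the 2 of smallest adjusted p in each direction. The members and lists were chosen with earlier results of these data known. The pairs of identifier and symbol were read from a converted supplementary document. Identifiers were matched to a RefSeq gene table of the GS115 genome (0 of 5120 matched), so no name, position or sequence is given for the rest.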

Additional observations from a re-analysis of the deposited data

Results flagged for a closer look

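Of the 13 named genes, 9 had clone differences that were not the same in X-33 (clone 13 minus 16) and Y-48124 (clone 13 minus 14) by edgeR's test of the difference itself, adjusted over 4846 genes, of which 465 (9.6%) passed. The excess of the X-33 log2 fold change was 1.77 for ZPS1 (SE 0.38, adjusted p = 0.0025), 1.42 for GQ67_02594 (SE 0.18, adjusted p = 2.7e-06), 1.24 for GQ67_02792 (SE 0.19, adjusted p = 4.2e-05) and 1.05 for YFL040W (SE 0.18, adjusted p = 0.00027). It was negative, at -1.80, for FLO11-BSC1 (SE 0.20, adjusted p = 8.5e-07), at -1.21 for GQ67_04577 (SE 0.15, adjusted p = 1.8e-06), at -0.79 for YDL218W (SE 0.15, adjusted p = 0.00083), at -0.65 for GQ67_04920 (SE 0.12, adjusted p = 0.00046) and at -0.63 for GQ67_02041 (SE 0.20, adjusted p = 0.048). GQ67_04920 was lower in the high clone of both strains, so for this gene the sizes differed and not the direction. The 4 genes picked by their X-33 p-value tend to look larger there than elsewhere by the way they were picked.

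The rhGH transgene, which the X-33 rhG-CSF clones should not carry, was counted in each of their 9 libraries, with 50 to 105 counts. This was 0.0029 to 0.0077% of a library, and the rhG-CSF row likewise held 28 to 92 counts in the X-33 rhGH libraries, 0.0042 to 0.014%. The source of these counts was not tested.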

How the results depend on the processing

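In the comparison of clone 13 with clone 16, DESeq2 called 799 genes, of which 793 were among the 928 with the same direction, and other scalings, filters and pseudocounts gave 783 to 935. Counts outside 1.5 times the reported one came from the fit of all 36 rhG-CSF libraries, with 588 for clone 13 against 16, 257 for 13 against 12, 160 for 12 against 16 and 215 for the difference from Y-48124. Requiring a log2 fold change above 1 left 119, 65 and 55 in X-33, 75 in Y-48124, 1031 in GS115, 1230 in Y-11430 and 137 for the difference. Limma on log2(TPM + 1) gave 221 for clone 12 against 16. Leaving out 1 culture gave 675 to 858 for clone 13 against 16, 338 to 577 for 13 against 12, 200 to 313 for 12 against 16, 251 (without culture C of clone 13) to 360 in Y-48124, 1691 to 2723 in GS115, 2389 to 2515 in Y-11430 and 340 to 518 for the difference. Other than from fewer samples or the stricter rule itself, the cause was not tested.

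Of 234 values of the 13 named genes under 18 other settings (DESeq2 shrinkage among them), 216 kept direction and side of the threshold, 14 lost a call and 1 gained one. PDR12, never called, changed sign in 3, at -0.0081 with limma on log2(TPM + 1), -0.0038 without culture A of clone 13 and -0.0031 without culture C of clone 16.

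Culture letters were not treated as pairs because they name different cultures in each clone. The deviations of same-letter cultures from their clone means correlated at 0.0068 to 0.13 over 9 pairs and exceeded 0.1 in only 2. All 9 were positive, and the best match was on the own letter in 15 of 18 cases, a hint from the data of a weak letter effect. A replicate block for the letter gave 1008 genes for clone 13 against 16, 589 for 13 against 12 and 499 for 12 against 16, with 918 of the 928 among the first, and it changed no call of a named gene. Clone 16 was sequenced more deeply than clone 13, and no fit at matched depth was run.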
